A study of Mus musculus with 4 samples.

Results

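The genes described here are the 19779 protein-coding genes with at least 1000 nt of annotated exons in the 2 libraries of undifferentiated mouse embryonic stem (ES) cells, ES1 and ES2, ranked by their mean level over the pair. They were chosen from 47633 genes in the deposited table, of which 21618 are protein-coding, without use of their levels. Transcript levels were measured by RNA sequencing as FPKM, fragments per kilobase of gene model scaled to the mapped fragments of the library, so levels of different genes are compared per length throughout. The study sequenced 4 libraries of total RNA: these 2, 1 of cells kept without leukaemia inhibitory factor (LIF) for 2 days, and 1 labelled embryoid body after 5 days without it. The latter 2 are not analysed here.

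Both ES libraries carry the same labels: strain 129S2/SvPas, cell type "21-24", no genetic change named. The cells were grown in serum with LIF on fibroblasts from C57/BL6 embryos that had been treated with mitomycin C, which stops their division. RNA was taken from the culture with Trizol, with no step named that removed the feeder cells, and made into libraries with a VAHTS total RNA kit. The labels do not say that ES1 and ES2 came from separate cultures, so the spread between them may be technical. With 1 group of 2 libraries there is no test, and every comparison below is a description. In bulk RNA, fewer cells of a type and less RNA per cell cannot be told apart.

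ES cells are derived from the inner cell mass of the early embryo and can form all lineages of the body. In serum and LIF they are held by a circuit of transcription factors around Pou5f1 (OCT4), Sox2 and Nanog, together with LIF acting through STAT3. They divide rapidly with a short G1 phase, make large amounts of ribosomes, and keep the genes of later lineages silent, in part through Polycomb complexes.

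Depth was close in the pair, at an estimated 31.7 M fragments in ES1 and 26.8 M in ES2. A floor of 3 fragments in a gene of 1 kb then lies at 0.0946 FPKM in ES1 and 0.112 FPKM in ES2, and in a gene of 3 kb at 0.0315 and 0.0373 FPKM. These floors cover counting error only, and a gene listed at 0 is one not detected at this depth. The members held 73.1% of all FPKM in ES1 and 83.8% in ES2. How reads that match several copies of a gene were divided is not given in the sources used here, so levels of genes with many processed pseudogenes (ribosomal proteins, Gapdh, Npm1, Eef1a1, Nanog) are uncertain. A 0 in a gene with close copies may reflect that division rather than a lack of transcript. Whether the libraries record the strand is not given either, so reads of a gene and of one on the opposite strand may be mixed, which applies to 38.3% of the members.

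The 4 markers of undifferentiated ES cells were all among the highest genes of the culture, so its label and its markers did not conflict. Pou5f1, the POU-domain factor required for pluripotency, was at 489 FPKM in ES1 and 472 in ES2 (mean 480.3 ± 11.9, SD, n = 2). It ranked 103rd of all members and first among transcription factors. Zfp42 (REX1), a zinc finger protein of naive ES cells, stood at 183 and 198 FPKM (190.5 ± 11.3, SD, n = 2). Esrrb, an orphan nuclear receptor of the naive circuit, stood at 159 and 156 FPKM (158 ± 1.83, SD, n = 2). Nanog, a homeobox factor, was the lowest of the 4 at 113 and 108 FPKM (111 ± 3.79, SD, n = 2) and ranked 677th. The pairs of values did not overlap between neighbours in this order, so Pou5f1, Zfp42, Esrrb and Nanog kept the same order in both libraries.

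On mm10 with GENCODE M21, Pou5f1 spans chr17:35506018-35510772 on the plus strand and overlaps an annotated gene on the other strand. The bodies of Zfp42 (chr8:43295063-43306980, minus strand), Esrrb (chr12:86361117-86521628, plus strand) and Nanog (chr6:122707489-122714633, plus strand) overlap none. The 100 bases before the RefSeq start of the highest and the lowest marker are shown because they are poor in CpG, the dinucleotide that vertebrate DNA methylation acts on. Beside them stand the same bases of Rpl26 and Eef1a1, 2 of the 10 highest genes. Capitals mark each CG, and letters run 5′ to 3′ along the gene, from RefSeq on GRCm38.p6 (mm10).

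Pou5f1, chr17:35505932-35506031, plus strand: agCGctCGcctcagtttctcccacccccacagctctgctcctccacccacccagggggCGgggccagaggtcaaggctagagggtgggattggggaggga
Nanog, chr6:122707389-122707488, plus strand: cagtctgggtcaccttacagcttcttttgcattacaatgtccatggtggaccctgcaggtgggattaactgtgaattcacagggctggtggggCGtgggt
Rpl26, chr11:68901466-68901565, plus strand: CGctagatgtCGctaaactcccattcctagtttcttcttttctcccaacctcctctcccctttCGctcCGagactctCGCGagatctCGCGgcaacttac
Eef1a1, chr9:78481725-78481824, minus strand: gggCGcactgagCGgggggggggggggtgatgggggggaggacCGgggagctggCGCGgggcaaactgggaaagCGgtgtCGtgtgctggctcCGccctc

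Pou5f1 has 3 CG in this stretch and Nanog 1, against 8 in Rpl26 and 8 in Eef1a1. The count does not separate all markers from all abundant genes, since Zfp42 and Gapdh have 5 each and Esrrb has 1. Over the full promoter window of 300 bases, the observed CpG count divided by the count that the C and G content would give was 0.374 for Pou5f1, 0.441 for Zfp42, 0.266 for Esrrb and 0.192 for Nanog. The same ratio was 0.8696 for Rpl26 and 0.697 for Eef1a1. All 4 marker promoters lay below both abundant genes on this scale, and below Gapdh at 0.501. No promoter share is given for the pluripotency lists, because the RefSeq table holds a promoter for fewer than 80% of their genes, which makes such a check void.

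Somewhat more than 50% of the genes were detected. At a threshold of 1 FPKM, 11058 genes passed in ES1 and 11094 in ES2, and 10940 (55.3% of members) passed in both. Only 272 genes passed in exactly 1 library. On the mean of the pair, 11074 genes (56.0%) were at 1 FPKM or more, the level at which a gene is called on below, 6373 at 10 or more, 760 (3.84%) at 100 or more and 39 at 1000 or more. At the other end 5869 genes (29.7%) were below 0.1 FPKM, of which 4081 (20.6% of members) were listed at 0 in both libraries, and 2836 (14.3%) lay between 0.1 and 1 FPKM. The median over all members was 2.17 FPKM. Among genes at 1 FPKM or more it was 13.3 FPKM, with quartiles of 4.92 and 32.7. These 2 medians are the background against which each gene class below can be read.

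**Figure D1:**
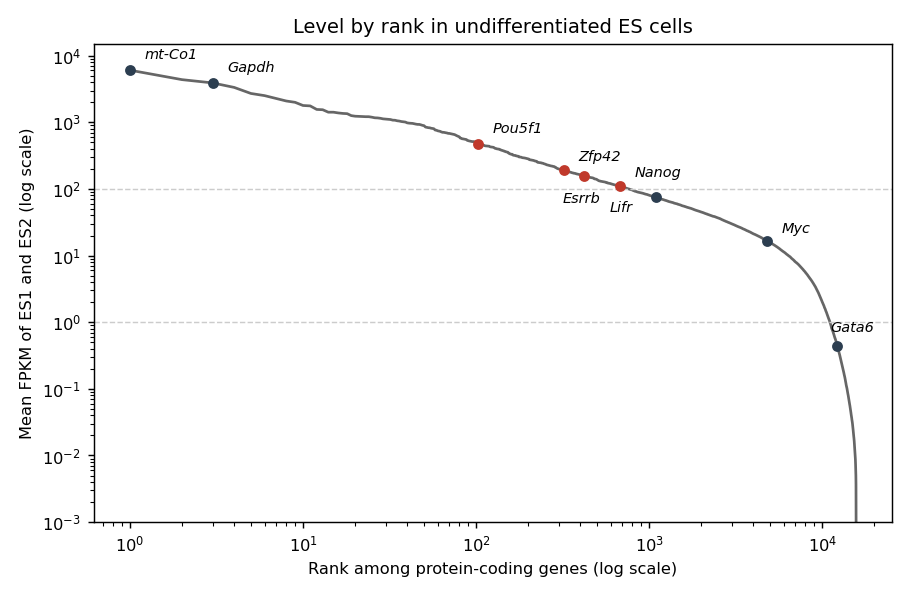
Mean FPKM of ES1 and ES2 (vertical, log scale) against rank among the 19779 genes (horizontal, log scale). The line joins genes in order of rank, the axis ends above the lowest of them, red points are the 4 ES markers, dark points are other named genes, and dashed lines stand at 1 and 100 FPKM. The curve runs from mt-Co1 at 6065 FPKM to the genes near 0, and all 4 ES markers lie above 100 FPKM.

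Most genes near the length limit were at low levels. Genes in the first 100 nt above the limit had a median of 0 FPKM, with 70 of 338 (20.7%) at 1 FPKM or more. Genes in the last 100 nt below it also had a median of 0, with 46 of 480 (9.58%) at 1 FPKM or more. Some of the latter were abundant, such as Rpl32 with 963 nt of exons at 1389 and 1482 FPKM. The plot of level by rank shows a long shoulder of moderate genes followed by a steep drop. The 10 highest genes held 7.16% of the summed FPKM of members, the 30 highest 13.2%, the 100 highest 25.2% (24.8% in ES1 and 25.6% in ES2) and the 1000 highest 58.6%. It took 615 genes to reach 50% of the sum and 4790 genes to reach 90%.

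Genes for making protein stood at the top. The highest member was mt-Co1, the mitochondrially encoded core subunit of cytochrome c oxidase, at 6188 FPKM in ES1 and 5941 in ES2 (6065 ± 174, SD, n = 2). Next came Eef1a1, which delivers aminoacyl-tRNA to the ribosome, at 4296 and 4451 FPKM (4374 ± 110.2, SD, n = 2). Gapdh, a glycolytic enzyme, stood at 3571 and 4245 FPKM (3908 ± 476, SD, n = 2). Npm1, a nucleolar protein of ribosome assembly, stood at 3281 and 3409 FPKM. In Eef1a1, Gapdh and Npm1, ES2 was the higher library.

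Actb, cytoplasmic actin, was at 2750 and 2678 FPKM. Next, Rpl26 and Rps12, which encode proteins of the large and the small ribosomal subunit, had means of 2517 and 2279 FPKM. The cytosolic chaperones Hsp90ab1 and Hspa8 followed at means of 2092 and 1998 FPKM, and Rps24 closed the first 10 at 1790.2 FPKM. Ranks 11 to 30 went from Actg1, the second cytoplasmic actin, at 1766 FPKM to Rpl7a at 1121 FPKM. They included Atp5b, the catalytic subunit of ATP synthase (1421 FPKM), Ppia, a peptidyl-prolyl isomerase (1419.9 FPKM), Tpt1 (1349 FPKM), the 14-3-3 protein Ywhae (1237 FPKM), the ribosome scaffold Rack1 (1227 FPKM), the helicase Eif4a1 (1223 FPKM) and Hsp90aa1 (1216 FPKM).

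Of the 30 highest genes, 15 encoded ribosomal proteins, 2 translation factors, 3 chaperones, 1 a glycolytic enzyme, 1 a nuclear-encoded respiratory subunit and 1 a mitochondrially encoded one. The other 7 were Npm1, Actb, Actg1, Ppia, Tpt1, Ywhae and Rack1. Among the 100 highest, 52 were ribosomal protein genes, 7 translation factors, 4 chaperones, 4 splicing proteins, 4 glycolytic enzymes, 3 mitochondrial genome transcripts, 2 respiratory subunits, 2 histones and 1 a proteasome subunit, with 21 outside these groups. These 52 were 73.2% of the 71 ribosomal protein members, while the 100 highest are 0.506% of all members.

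The ribosomal protein family stood apart as a whole. Of its 71 members 70 were at 1 FPKM or more and 66 at 100 or more, with a median of 682 FPKM against 2.17 for all members. Together they held 12.2% of the summed FPKM in ES1 and 13.1% in ES2. The lowest members were Rpl10l, a retroposed copy known from testis, at 12.5 and 11.3 FPKM, and Rpl3l, a form known from striated muscle, at 0.792 and 0.660 FPKM. ES2 was the higher library for 56 of the 71 genes (78.9%). The same held for 73.3% of all members at 100 FPKM or more and for 62.5% of those at 1 FPKM or more. Small nuclear RNA genes held 7.25% of all FPKM in ES1 and 0.290% in ES2, and the part of this in the order of the libraries was not tested.

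Messenger RNAs of the translation machinery are known for a 5′ terminal pyrimidine tract, a run of C and T that begins at the first transcribed base and links their translation to mTOR signalling. The promoter table was searched on the gene's own strand for such a tract, meaning a C followed by at least 4 further letters that are C or T, within 5 bases before to 10 after the RefSeq start. It was present in 25 of the 57 ribosomal protein promoters (43.9%), in 22.9% of the 839 promoters available for the 1000 highest genes and in 18.7% of all 17492 coding promoters. Of the 23 windows available for the 30 highest genes, 9 held a tract, 7 of them among the 14 windows of ribosomal protein genes. Windows of 60 bases, 40 before the start and 20 from it on, show the tract in these 9 genes, in the same build and source. Capitals mark the tract from its first C within the searched bases.

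Eef1a1, chr9:78481705-78481764, minus strand: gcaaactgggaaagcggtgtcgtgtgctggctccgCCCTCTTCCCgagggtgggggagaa
Rps24, chr14:24490638-24490697, plus strand: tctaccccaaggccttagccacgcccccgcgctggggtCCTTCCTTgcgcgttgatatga
Rps26, chr10:128626487-128626546, minus strand: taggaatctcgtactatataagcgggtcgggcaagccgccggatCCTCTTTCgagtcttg
Rps2, chr17:24720023-24720082, plus strand: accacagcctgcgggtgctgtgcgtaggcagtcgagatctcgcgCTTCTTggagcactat
Rpl12, chr2:32961672-32961731, plus strand: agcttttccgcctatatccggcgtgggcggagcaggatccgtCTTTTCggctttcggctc
Rps15a, chr7:118116128-118116187, minus strand: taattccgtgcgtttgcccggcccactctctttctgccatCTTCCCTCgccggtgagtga
Rack1, chr11:48800320-48800379, plus strand: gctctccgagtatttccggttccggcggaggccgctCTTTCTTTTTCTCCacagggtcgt
Rpl35, chr2:39005112-39005171, minus strand: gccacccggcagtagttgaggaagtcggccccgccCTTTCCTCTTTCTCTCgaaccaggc
Rpl7a, chr2:26910767-26910826, plus strand: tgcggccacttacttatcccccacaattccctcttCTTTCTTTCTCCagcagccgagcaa

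In these windows the RefSeq start follows the first 40 letters. The marked tract begins before that base in Eef1a1, Rps24, Rack1, Rpl35 and Rpl7a, at it in Rps15a, and after it in Rps26, Rps2 and Rpl12. Because the search began 5 bases before the start, the marked lengths are not those of the whole run: in Rack1, Rpl35 and Rpl7a the run of C and T goes on upstream of the capitals. In Rps24, Rps26, Rpl12 and Rps15a a T also lies directly before the first marked C, since the marking begins at a C. The gene with the third highest level, Gapdh, has no such tract in its window. A match says only that these letters are there, not that the transcript is regulated through them. The lack of a match does not show that a transcript has no tract, since only bases near the RefSeq start were searched.

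Protein folding and turnover followed. Of 21 members of the chaperonin and HSP90-HSP70 list 19 were at 1 FPKM or more, with a median of 319 FPKM. Hsp90ab1, the constitutive HSP90, was at 2004 and 2179 FPKM, Hspa8 at 1892 and 2103 FPKM and Hsp90aa1 at 1310.0 and 1121 FPKM. The stress-inducible HSP70 genes Hspa1b and Hspa1a stood at 2.03 and 2.12 FPKM and at 0.647 and 0.865 FPKM, and Cct6b, a chaperonin subunit known from testis, was listed at 0 in both. The inducible HSP70 genes were thus far below Hspa8, while Hsp90aa1, the stress-inducible HSP90, was abundant. The proteasome family had 43 of 46 members at 1 FPKM or more and a median of 122.7 FPKM, led by Psmb3 (485 and 533 FPKM), Psmb6 (426 and 455 FPKM) and Psmc6 (206 and 218 FPKM). Its lowest member was Psmb11, the thymus subunit, at 0.0147 and 0 FPKM.

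For the remaining translation genes, 61 of 65 initiation and elongation members were at 1 FPKM or more, with a median of 98.2 FPKM. Behind Eef1a1 and Eif4a1 came Eif5a, which helps the ribosome through difficult peptide bonds, at 1103 FPKM in both libraries. Eif4e1b, an oocyte form of the cap-binding protein, was listed at 0 in both. All 64 spliceosome members were at 1 FPKM or more, with a median of 89.7 FPKM, and the hnRNP proteins that coat nascent RNA led them. Hnrnpk stood at 853 and 931 FPKM, Hnrnpa2b1 at 743 and 919 FPKM, and Hnrnpa1 at 687 and 697 FPKM, while Srsf12 was lowest at 1.72 and 1.69 FPKM. Nucleoporins had 25 of 26 members on and a median of 59.5 FPKM, and ran from Nup153 at 115 and 126 FPKM to Nup210l, a paralogue known from testis, at 0.228 and 0.289 FPKM.

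**Figure D2:**
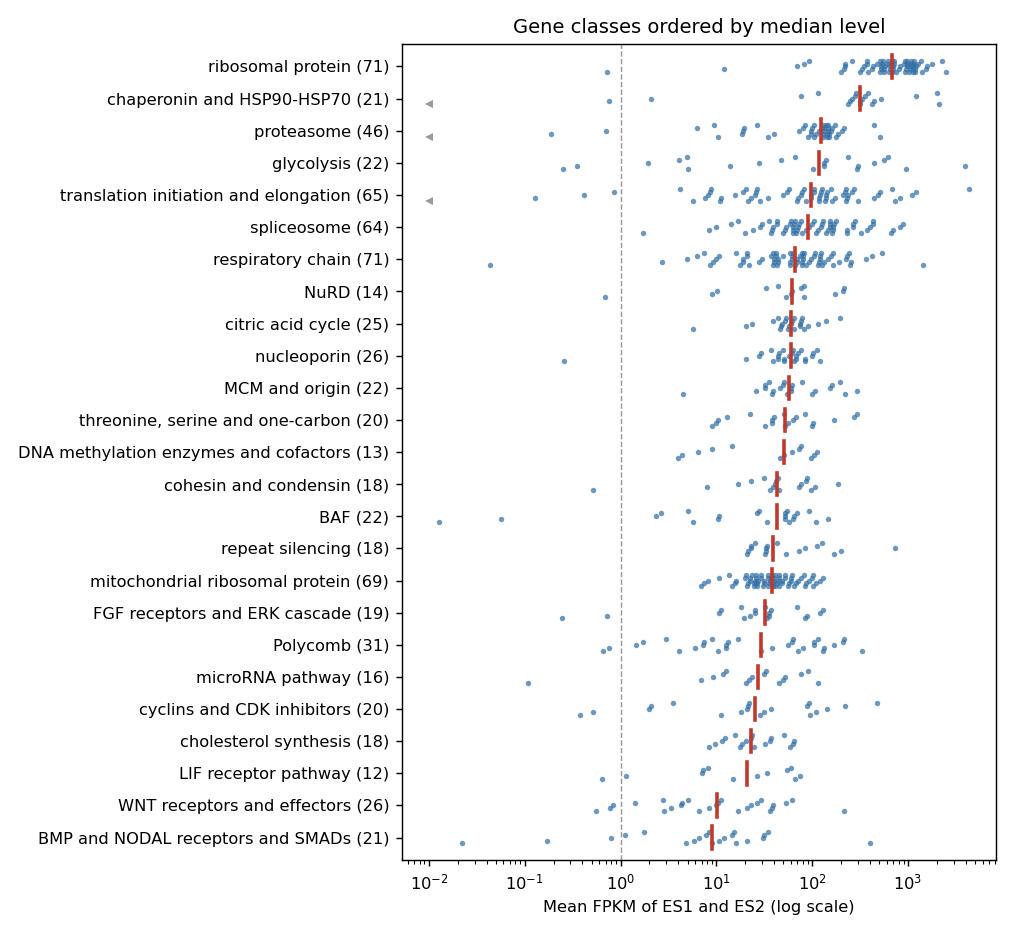
Mean FPKM of ES1 and ES2 (horizontal, log scale) for each gene of 25 classes, ordered by median. Points are genes, the red bar is the class median, grey triangles are genes below 0.01 FPKM, brackets give the number of members and the dashed line stands at 1 FPKM. Ribosomal proteins have the highest median at 682 FPKM, and the class of BMP and NODAL components has the lowest at 9.03 FPKM.

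Glycolytic enzymes, on which pluripotent cells are known to rely, were abundant. Of 22 members 20 were at 1 FPKM or more, with a median of 117 FPKM. After Gapdh the highest were Pkm, pyruvate kinase, at 943 and 959 FPKM and Eno1, enolase, at 586 and 663 FPKM. Pklr, the pyruvate kinase of liver and red cells, was lowest at 0.242 and 0.259 FPKM. All 25 enzymes of the citric acid cycle were at 1 FPKM or more with a median of 60.5 FPKM. Mdh2 led them at 187 and 206 FPKM, then Mdh1 at 129.9 and 150.0 and Cs, citrate synthase, at 111 and 118. Pcx, pyruvate carboxylase, was the lowest of that list at 6.16 and 5.26 FPKM.

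Nuclear-encoded respiratory chain subunits had 70 of 71 members on and a median of 65.6 FPKM, with Atp5b at 1410.1 and 1431 FPKM, Cox7c at 519 and 545 FPKM and Atp5h at 395 and 437 FPKM. Ndufa4l2, a form known from hypoxia, was at 0.0398 and 0.0465 FPKM. All 69 mitochondrial ribosomal proteins were on, at a median of 38.2 FPKM, against 682 FPKM for the cytosolic ribosomal proteins. The threonine, serine and one-carbon list had all 20 members on and a median of 51.5 FPKM. Tdh, threonine dehydrogenase, on which mouse ES cells depend for growth, stood at 266 and 283 FPKM, near Mat2a, which makes the methyl donor SAM, at 289.5 and 295 FPKM. Shmt1 was at 162 and 179 FPKM and Mthfd2l was lowest at 8.74 and 9.30 FPKM. Cholesterol synthesis genes were all on at a lower median of 23.2 FPKM, with Mvd lowest at 8.62 and 8.15 FPKM.

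Replication and cell cycle genes stood well above the median of all members. All 22 genes of the MCM and origin list were on, at a median of 57.6 FPKM. Pcna, the sliding clamp of DNA polymerase, was at 284 and 305 FPKM, and Mcm7 and Mcm3, subunits of the replicative helicase, were at 205 and 240 FPKM and at 188 and 204 FPKM. Among cyclins and their partners 18 of 20 were on, with Cdk4 at 458 and 487 FPKM, Ccnb1 at 212 and 230.2 FPKM and Ccna2 at 140.1 and 143 FPKM. The lowest was the CDK inhibitor Cdkn2c at 0.401 and 0.358 FPKM. Cohesin and condensin members were on in 17 of 18 cases, from Ncapd2 at 177 and 198 FPKM to the meiotic Smc1b at 0.520 and 0.523 FPKM.

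Chromatin regulators were broadly present. In the DNA methylation list all 13 members were on at a median of 50.2 FPKM. Tet1, which oxidises methylcytosine, stood at 107 and 116 FPKM. Uhrf1, the partner of the maintenance methyltransferase, stood at 104 and 107 FPKM, and Dnmt3b, a de novo methyltransferase, at 93.9 and 99.7 FPKM. The lowest was the methyl-CpG binder Mbd1 at 3.90 and 4.10 FPKM.

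Polycomb genes, which silence developmental regulators, had 29 of 31 members on and a median of 29.1 FPKM. Without genes that overlap the opposite strand that median was 12.6 FPKM. Phc1 was highest at 331 and 333 FPKM, followed by the histone binders Rbbp7 (208 and 218 FPKM) and Rbbp4 (187 and 231 FPKM), which NuRD shares. Cbx8 was lowest at 0.4498 and 0.866 FPKM. The NuRD remodeller had 13 of 14 members on, with the helicase Chd4 at 177 and 172 FPKM and its neural paralogue Chd5 lowest at 0.713 and 0.674 FPKM.

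BAF remodelling subunits were on for 20 of 22. Smarcc1, a core subunit of the ES form, stood at 147 and 149 FPKM, Arid1a at 108 and 113 FPKM, and Actl6a at 89.7 and 93.6 FPKM. Its neuronal counterpart Actl6b was lowest at 0 and 0.0253 FPKM. All 18 repeat silencing genes were on, and Trim28, the corepressor that KRAB zinc fingers recruit to retroviral sequence, led by far at 743 and 735 FPKM. The next in that list were Atrx at 198 and 201 FPKM and Cbx1 at 176 and 161 FPKM, and the lowest was Zfp809 at 20.4 and 21.6 FPKM. In the microRNA list 15 of 16 genes were on, led by Trim71 at 115 and 113 FPKM, Drosha at 86.4 and 93.6 FPKM and Lin28a, which blocks let-7 maturation, at 76.2 and 77.3 FPKM. Ago4 was lowest at 0.127 and 0.0888 FPKM.

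The 4 signalling lists had medians between 9.03 and 32.1 FPKM. Of the 12 LIF pathway genes 11 were on, with the receptor Lifr at 74.4 and 75.4 FPKM, Stat3 at 59.1 and 74.6 FPKM and the feedback inhibitor Socs3 at 61.3 and 59.7 FPKM. Socs1 was lowest at 0.708 and 0.589 FPKM. In the FGF and ERK list 17 of 19 were on at a median of 32.1 FPKM, with the adaptor Grb2 at 131 and 129.7 FPKM and Nras at 84.1 and 92.9 FPKM. Fgfr4 was lowest at 0.267 and 0.225 FPKM.

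Of 26 WNT genes 23 were on, with a median of 10.2 FPKM that was 3.38 FPKM without genes overlapping the opposite strand. Ctnnb1 (beta-catenin) stood at 198 and 229 FPKM, Dvl2 at 62.0 and 60.4 FPKM, and Lef1 at 55.0 and 52.6 FPKM, with the receptor Fzd1 lowest at 0.574 and 0.546 FPKM. The BMP and NODAL list had 18 of 21 on, and Tdgf1 (Cripto), the NODAL co-receptor, stood far above the rest at 394 and 413 FPKM. Its next members were Bmpr1a at 36.1 and 33.8 FPKM and Smad2 at 28.4 and 34.3 FPKM, and Acvr1c was lowest at 0.00995 and 0.0344 FPKM. One component in each of the last 2 lists was thus present at more than 3 times the level of the next.

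With the zinc finger genes named Zfp counted, transcription factors were on somewhat more often than members as a whole, and few were abundant. The symbol families of factors held 841 members, of which 542 (64.4%) were at 1 FPKM or more, 249 at 10 or more and 19 at 100 or more, with a median of 3.65 FPKM. Of these factors 393 were Zfp genes, of which 333 (84.7%) were on. The factors outside the Zfp family were on less often than members as a whole. Over all members the share at 1 FPKM or more was 56.0% and the median 2.17 FPKM. The 10 highest were Pou5f1 (480.3 FPKM), Zfp207, a spindle protein with zinc fingers (219.6 FPKM), Zfp42 (190.5 FPKM), Zfp990 (186 FPKM), Klf4 (170.2 ± 7.57 FPKM, SD, n = 2), Sall4 (158 FPKM), Esrrb (158 FPKM), Mycn (152 FPKM), Zfp57, which protects imprints (150.1 FPKM), and Atf4 (145 FPKM). Of these 10, 6 (Pou5f1, Zfp42, Klf4, Sall4, Esrrb and Zfp57) are on the pluripotency lists used here.

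Within several families 1 member accounted for most of the signal. In the POU family 6 of 15 members were on, Pou2f1 at 32.5 and 33.8 FPKM came next after Pou5f1, and Pou1f1, the pituitary factor, was listed at 0. In the SOX family 7 of 18 were on. Sox2, the partner of OCT4, stood at 134 and 126 FPKM, Sox4 at 23.8 and 22.4 FPKM and Sox11 at 12.05 and 11.2 FPKM, and Sox14 was lowest at 0.0280 and 0.0329 FPKM. In the T-box family 6 of 17 were on, led by Mga, the MAX partner that represses germ cell genes, at 129 and 148 FPKM and Tbx3 at 15.8 FPKM in both libraries.

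The other large families were read the same way. KLF and SP factors were on for 20 of 26 members, all 10 E2F and DP genes were on, and 333 of 393 Zfp genes were on at a median of 6.19 FPKM. Nuclear receptors were on for 21 of 47, with Esrrb followed by Nr0b1 at 51.6 and 47.4 FPKM and Nr5a2 at 37.6 and 40.4 FPKM.

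In families known for lineage choice few members reached 1 FPKM. The highest GATA factor was Gata2, a factor of blood stem cells, at 1.18 and 0.672 FPKM (0.924 on average). None of the 6 GATA factors thus reached 1 FPKM on the mean of the pair. Of 38 HOX genes 3 did, Hoxb9 at 1.91 and 2.13 FPKM, Hoxc6 at 1.86 and 2.14 FPKM and Hoxd13 at 1.47 and 1.67 FPKM, while Hoxa2 and Hoxb1 were listed at 0. Among lineage bHLH factors 3 of 28 did, led by Neurod1 at 4.39 and 4.22 FPKM. The homeobox group of PAX, IRX, DLX, CDX and related genes had 4 of 30 on and the LIM and NK homeobox group 4 of 26.

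The marker lists of other cell types and states were read the same way. All 19 naive pluripotency members were on, with a median of 39.0 FPKM, led by Tdh, Zfp42 and Klf4 and ending with Tcl1 at 3.56 and 4.22 FPKM. All 17 general pluripotency members were on, with a median of 114 FPKM. In that list Tdgf1 and L1td1, an RNA-binding protein of transposon origin, at 257 and 259.5 FPKM followed Pou5f1, and Fgf4 was lowest at 24.8 and 26.2 FPKM. Markers of the formative and primed epiblast were on for 12 of 13 at a median of 10.4 FPKM, which was 5.96 FPKM without genes overlapping the opposite strand. Etv5 (122 and 129 FPKM), Dnmt3b and Etv4 (68.4 and 73.3 FPKM) led them, while Fgf5, the ligand that marks the primed state, was at 0.413 and 0.846 FPKM.

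**Figure D3:**
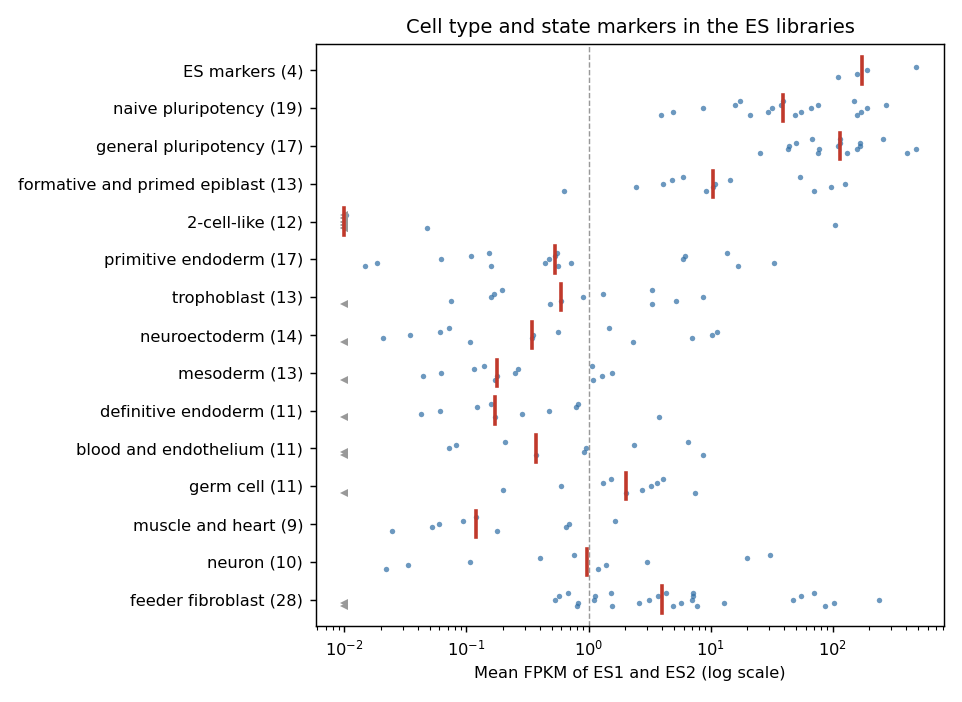
Mean FPKM of ES1 and ES2 (horizontal, log scale) for each member of 15 marker lists. Points are genes, red bars are list medians, grey triangles are genes below 0.01 FPKM, brackets give the number of members and the dashed line stands at 1 FPKM. The 3 pluripotency lists have medians of 39.0 to 174 FPKM, while lists of embryonic lineages have medians below 1 FPKM.

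On the mean of the pair, lists of differentiated lineages had medians below 1 FPKM, against 2.17 FPKM for all members. Each list had a smaller share on than the 56.0% of all members. Primitive endoderm markers were on for 5 of 17, led by the laminins and collagen Lamb1 (32.6 and 33.4 FPKM), Lama1 (16.8 and 17.1 FPKM) and Col4a1 (14.9 and 12.5 FPKM). The secreted protein Ttr was at 0.0295 and 0 FPKM, and the factors Gata6 and Sox17 were at 0.498 and 0.376 FPKM and at 0.611 and 0.341 FPKM. Trophoblast markers were on for 5 of 13, led by the keratin Krt18 at 8.58 and 8.59 FPKM, with Tpbpa listed at 0. Neuroectoderm markers were on for 5 of 14, led by Map2 at 11.0 and 11.6 FPKM, with Neurog2 listed at 0. Mesoderm markers were on for 4 of 13, led by Kdr, the VEGF receptor, at 1.65 and 1.43 FPKM.

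Only Hhex, at 3.82 and 3.80 FPKM, reached 1 FPKM among 11 definitive endoderm markers, and only Des, at 1.58 and 1.74 FPKM, among 9 of muscle and heart. Blood and endothelium had 3 of 11 on. Its highest, the adhesion molecule Pecam1 at 8.69 and 8.76 FPKM, is also a marker of naive ES cells. Neuron markers were on for 5 of 10, led by the microtubule regulator Stmn2 at 30.9 and 30.8 FPKM and the neurofilament Nefl at 20.5 and 19.4 FPKM. Dcx was lowest at 0.00765 and 0.0361 FPKM. The median of the neuron list was 0.977 FPKM on the mean of the pair, 1.004 in ES1 and 0.950 in ES2. Without genes overlapping the opposite strand it was 1.53 FPKM, so this list lay at the line of 1 FPKM.

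Germ cell markers stood between these and the pluripotency lists, with 8 of 11 on at a median of 2.01 FPKM. Ddx4, the VASA helicase, was at 6.997 and 7.87 FPKM, Prdm1 at 4.14 and 3.99 FPKM and Sycp3, a protein of meiotic chromosomes, at 3.77 and 3.47 FPKM, while Stra8 was listed at 0. Of 12 members on the list of the rare 2-cell-like state 9 were listed at 0 in both libraries, all 4 Zscan4 genes on the list among them. Its highest member, Eif1a, at 103 and 106 FPKM, encodes a translation initiation factor in general use. Over all members 20.6% were listed at 0 in both. For genes with close copies a 0 may reflect how reads matching several copies were divided, so the list does not show that the state was absent.

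The feeder fibroblasts share the dish, so their markers were read as well. Of 28 members 21 were at 1 FPKM or more, with a median of 3.995 FPKM, which was 1.54 FPKM without genes overlapping the opposite strand. The list summed to 668 FPKM in ES1 and 681 in ES2, or 0.157% and 0.154% of the members' total. Fn1, fibronectin, at 240.1 and 239.6 FPKM, Vim, vimentin, at 101 and 102 FPKM and Acta2, smooth muscle actin, at 82.8 and 88.7 FPKM were the highest, and all 3 are made by many cell types. Without Fn1 and Vim the share was 0.0767%. The list had 7 members at 10 FPKM or more, and those other than Fn1, Vim and Acta2 are not given here. Among members below 10 FPKM, Col1a1 was at 6.71 and 7.29 FPKM, Col1a2 at 6.04 and 5.38 FPKM and Thy1 at 4.51 and 4.09 FPKM. Dcn was at 0.695 and 0.664 FPKM, Lum at 0.0160 and 0 FPKM, and Fap was listed at 0 in both. How much feeder RNA contributed to any other gene was not tested.

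Sensory receptor genes were almost all at 0, and few members of other tissue-specific families were on. Of 1022 olfactory receptors 1 reached 1 FPKM, Olfr985 at 3.85 and 3.90 FPKM, and 994 were listed at 0 in both libraries. No vomeronasal receptor of 238 did, the highest being Vmn2r1 at 0.188 and 0.180 FPKM. Cytochrome P450 genes were on for 11 of 100, led by Cyp51 of cholesterol synthesis at 17.0 and 18.0 FPKM. Keratins were on for 6 of 48, led by Krt19 at 8.72 and 9.34 FPKM, and chemokines and interleukins for 6 of 51, led by Ccl25 at 9.91 and 9.48 FPKM. All 3 defensins long enough to be members were listed at 0.

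Membrane and adhesion families were mixed. Solute carriers were on for 185 of 370, led by the mitochondrial phosphate and ADP/ATP carriers Slc25a3 (320 and 326 FPKM) and Slc25a5 (306 and 315 FPKM) and the glucose transporter Slc2a3 (301 and 303 FPKM). Ion channels were on for 29 of 134 with Kcnj3 highest at 28.4 and 27.8 FPKM, and receptors of the Gpr and Adgr families for 28 of 100 with Adgrl2 highest at 41.7 and 42.9 FPKM. Cadherins were on for 32 of 92, and Cdh1, the E-cadherin that holds ES colonies together, was highest at 77.4 and 80.2 FPKM against 9.84 and 10.9 FPKM for Cdh2. Integrins were on for 14 of 31, led by Itgb1 at 87.1 and 86.6 FPKM and Itga6, a laminin receptor subunit, at 58.4 and 61.6 FPKM.

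Annotated gene structure differed along the ranking. The median length of exons, summed over all annotated transcripts of a gene, was 3847 nt among genes at 100 FPKM or more, 4864 nt from 10 to 100, 4546 nt from 1 to 10, 3772 nt from 0.1 to 1 and 2629 nt below 0.1 FPKM. The median number of annotated transcripts was 6, 6, 5, 3 and 2 in the same order, so the depth of annotation differed along with length. Single-exon genes made up 1.84%, 0.837%, 2.30%, 5.15% and 6.75% of these tiers in the same order. Genes with predicted names made up 0.263% of the highest tier and 14.8% of the lowest, and olfactory and vomeronasal receptors 0% and 21.4%. An overlap with a gene on the opposite strand was annotated for 39.0% of the highest tier, 45.1% of genes from 1 to 10 FPKM and 24.5% of genes below 0.1 FPKM.

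Promoters were compared between the 1000 highest genes, of which 839 (83.9%) had a promoter in the RefSeq table, and all 17492 coding promoters of that table. The background is thus not limited to members, and small differences from it, such as that of TATAAA below, may come from the unlike sets. A background of all members is void, since only 78.4% of them had a promoter in the table. The median CpG ratio was 0.872 for the 1000 highest genes and 0.578 for all coding promoters, a difference of 0.294. A ratio of 0.6 or more was found in 88.0% of the high genes, 77.7% of those at 1 FPKM or more and 48.4% of all. The median GC content of the high genes was 61.0%, against 56.3% for all promoters. A comparison with silent genes is void, since only 76.6% of genes below 0.1 FPKM had a promoter in the table.

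Short motifs were searched on both strands. GGGCGG, the GC box bound by SP factors, lay in the 250 bases before the start of 63.5% of the 1000 highest genes and 42.9% of all promoters. CCGGAAG, the ETS core, was in 19.1% and 9.19%. The NRF1 core, searched as its paired repeat and given here by name alone, was in 15.4% and 6.95%. AAGATGG, the YY1 core, searched through 50 bases past the start as well, was in 10.1% and 6.35%. Each of these was more frequent in the high genes, while TATAAA between 40 and 20 bases before the start was in 2.74% and 3.26%. CCAAT was in 40.8% and 36.3%. The GC box, the ETS core and the NRF1 core each contain a CG, so their shares are not independent of CpG content.

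Ribosomal protein promoters held the ETS core in 26.3% and the YY1 core in 15.8% of 57 promoters, the NRF1 core in 3.51% and the GC box in 49.1%. TATAAA was present in 1.75% of them. The ETS and YY1 shares were not particular to this family, at 28.9% and 18.4% of 38 proteasome promoters. Among the 23 windows of the 30 highest genes it was present in 1, that of Ppia, shown here with TATAAA in capitals.

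Ppia, chr11:6415827-6415886, plus strand: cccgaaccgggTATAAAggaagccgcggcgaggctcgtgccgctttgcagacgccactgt

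**Figure D4:**
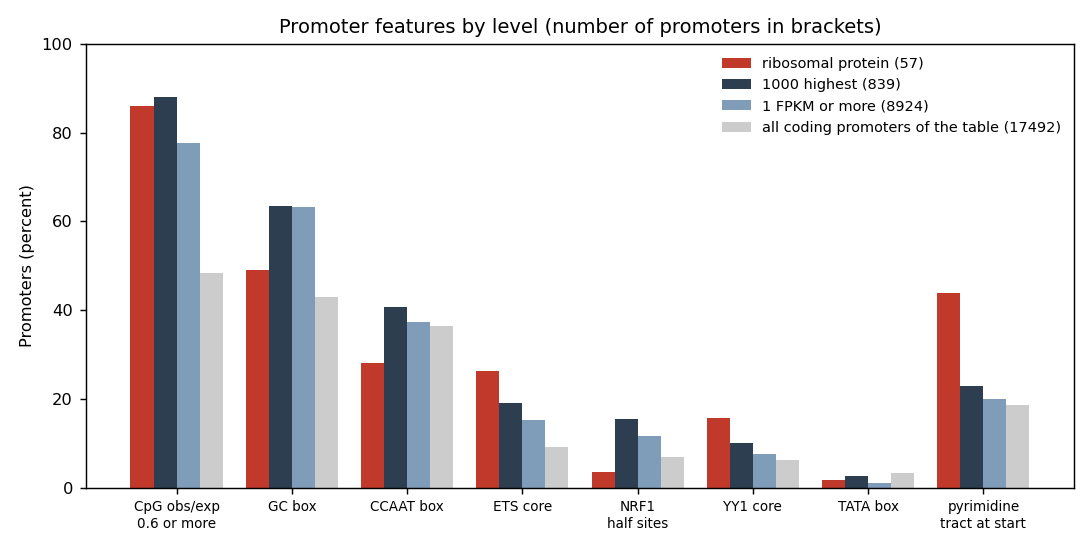
Share of promoters (vertical, percent, from 0) with each feature for ribosomal protein genes, the 1000 highest members, members at 1 FPKM or more and all coding promoters of the RefSeq table. Brackets give the number of promoters. A CpG ratio of 0.6 or more is found in 88.0% of the 1000 highest and 48.4% of all promoters, and the pyrimidine tract in 43.9% of ribosomal protein promoters and 18.7% of all.

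Levels were also read by chromosome. Chromosome 11 had the highest median among autosomes for genes at 1 FPKM or more, 19.5 FPKM, and held 13.7% of the summed FPKM with 1501 of the members. On the X chromosome 385 of 771 members were at 1 FPKM or more, with a median of 10.4 FPKM against 13.35 FPKM for autosomal genes, a ratio of 0.779. That ratio was 0.432 with no threshold on level.

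Of 85 members on the Y chromosome 4 were at 1 FPKM or more and 80 were below 0.1 FPKM, Sry, Zfy1 and Zfy2 among the latter at 0 in both libraries. The highest was Gm47283 (chrY:90784738-90816464), a gene with a predicted name, at 22.8 and 23.4 FPKM. Whether its reads came from the Y chromosome alone was not tested. Y-linked members with close copies carry the limit on a 0 given above. Eif2s3y, a translation initiation subunit, was at 5.89 and 5.63 FPKM, Uty at 2.81 and 2.74 FPKM, Ddx3y at 1.60 and 1.25 FPKM and Kdm5d at 0.206 and 0.0877 FPKM. Their X-linked counterparts Eif2s3x (108 and 136 FPKM), Ddx3x (307 and 376 FPKM) and Kdm5c (74.0 and 71.8 FPKM) were far higher. Xist, the non-coding RNA that coats an inactive X, was at 1.28 and 1.47 FPKM and its antisense partner Tsix at 7.26 and 6.56 FPKM. These 2 overlap on opposite strands, so without strand information their reads cannot be told apart. The feeder embryos could contribute to both X and Y values, and their part was not tested.

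The libraries lay close to each other across genes. Over the 11074 genes at 1 FPKM or more, Pearson's r of log2(FPKM + 1) and Spearman's rho were both 0.996, values across genes, which are not independent replicates. The median SD was 4.01% of the mean. Of the 100 highest genes in each library 96 were shared, and of the 1000 highest 970. On the scale of log2(FPKM + 1), which understates differences of low genes, 15 genes were at least 2-fold apart (0.135% of the 11074), 8 higher in ES1 and 7 in ES2. The median absolute difference was 0.10 on the log2 scale from 1 to 3 FPKM and 0.06 at 100 FPKM or more. The squared deviation within the pair was set against counting error, with fragments rebuilt from FPKM, summed exon length and estimated depth. Its median over genes was 2.85 times the median that counting error alone would give at 1 to 3 FPKM, and 45.4 times at 100 FPKM or more. Exon length covers all annotated transcripts of a gene, so the rebuilt fragments and both ratios can be too high.

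**Figure D5:**
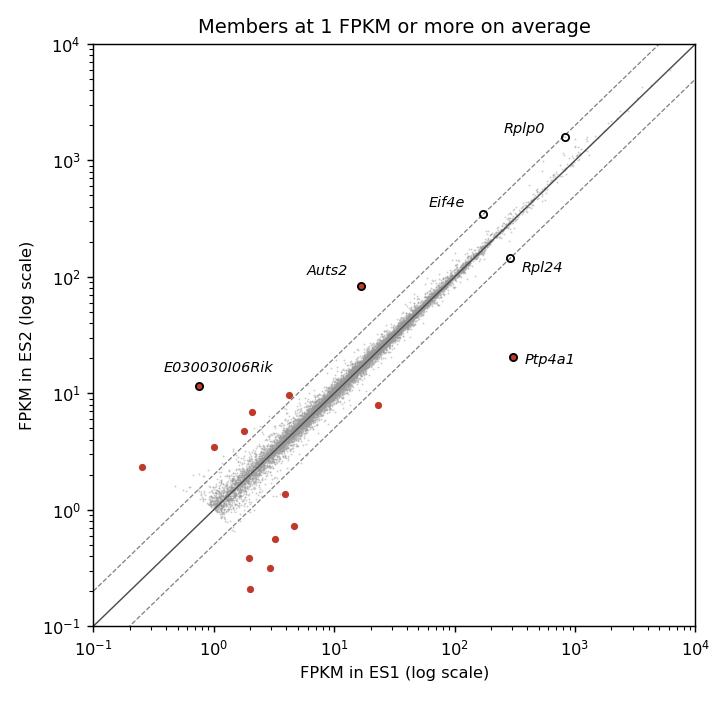
FPKM in ES2 (vertical, log scale) against ES1 (horizontal, log scale) for 11074 genes at 1 FPKM or more on average. The solid line marks equal values, the dashed lines 2-fold differences, red points the 15 genes at least 2-fold apart on log2(FPKM + 1), and rings the labelled genes. Most genes lie within the dashed lines, and E030030I06Rik (0.756 and 11.6 FPKM) and Ptp4a1 (307 and 20.6 FPKM) lie farthest out.

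Among genes at 5 FPKM or more, the largest difference on the scale of log2(FPKM + 1) was that of Ptp4a1, a protein tyrosine phosphatase, with 307 FPKM in ES1 and 20.6 in ES2 (3.84 on the log2 scale). Zfp950 (23.0 and 8.002 FPKM), Rpl24 (291 and 145 FPKM), Mrpl52 (52.6 and 27.8 FPKM) and Coa7 (18.3 and 10.5 FPKM) were also higher in ES1. In the other direction stood E030030I06Rik (0.756 and 11.6 FPKM), Auts2 (16.6 and 84.2 FPKM), Mrps36 (4.17 and 9.65 FPKM), the cap-binding factor Eif4e (173 and 346 FPKM) and Rplp0, a ribosomal stalk protein (830.4 and 1600.04 FPKM). Rpl24 overlaps the transcript Gm28037 on the same strand, which had 182 FPKM in ES1 and 383 in ES2. The sum of both was 473 and 529 FPKM, so the order of the libraries turned when the overlapping pair was summed. With 1 library against 1, none of these differences has a replicate check.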

How the data were processed

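Values are FPKM that the authors deposited, 1 per gene and library. Per the submitters' processing notes, Trimmomatic 0.36, STAR, Cufflinks and the build mm10 were used; their roles and options, the annotation and the strandedness are not known from the sources used here. Gene types, exons and overlaps came from GENCODE M21 (414 of 47633 identifiers unmatched, 82.8% at the same version), a release chosen here and perhaps not the authors', and promoters from RefSeq (15506 members had one).

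Depth was estimated by reading the lowest peak of FPKM times exon length, over genes with 1 transcript of at least 3000 nt, as 1 fragment. The script was tested on simulated data. Members and lists were chosen with earlier results of these data known. The rule for named genes took the 30 highest members, the 10 highest transcription factors, the 3 highest and the lowest of each list and symbol family (all of a list under 8), the 5 largest differences within the pair in each direction among genes at 5 FPKM or more, the 4 markers, Y-linked members and Xist. Other genes were chosen after their values were seen. Some genes that the rule names are not reported here. Where a RefSeq gene had several starts, the one nearest most CCDS transcripts was used. The planned promoter background, genes below 0.1 FPKM, was void and was replaced by all coding promoters. Alternatives covered each library alone, exon length, opposite-strand overlap, thresholds, pseudocounts and scaling. Scripts ran on Python 3.11.15 with pandas 2.3.3, numpy 2.4.6, matplotlib 3.10.9 and scipy 1.17.1.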

Additional observations from a re-analysis of the deposited data

How the results depend on the processing

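No paired analysis was possible because all values come from 1 group. Without genes that overlap the opposite strand, fewer genes are counted: 6046 were detected, the 100 highest held 34.06% of the sum, the X to autosome ratio was 0.7106, the feeder share 0.1047%, the promoter CpG difference 0.2837 and the ES genes 2-fold apart numbered 9. With exons of at least 2000 nt the 100 highest held 24.18%, the X ratio was 0.7811 and the feeder share 0.173%. With no minimum exon length the X ratio was 0.7755, the feeder share 0.1487% and 43 genes of the pair were 2-fold apart; the promoter difference was not run there. On either library alone the X ratio ran from 0.7822 to 0.7826. It was 0.4324 with no low-value filter and 0.8675 at 5 FPKM. Without Fn1 and Vim, a choice made after seeing the data, the feeder share was 0.07667%. Over the 100 bases before the start the CpG difference was 0.3065. The pair had 23 genes 2-fold apart with no filter, 5 at 5 FPKM, 46 with no pseudocount and 41 with a pseudocount of 0.1. It had 48 after the members of each library were rescaled to the same, larger sum. The members summed to 425445 FPKM in ES1 and 443128 in ES2, so rescaling raised their values against an unchanged filter and pseudocount. The 48 thus does not show the effect of equal sums alone. Beyond the number of genes or libraries left, the cause was not tested. The count of gene classes with a median of at least 10 FPKM was 33 to 36 over its alternatives, against 35. Depth limits genes near 0.1 FPKM.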

Other observations

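Short coding genes, left out by the exon length rule, held further abundant transcripts of the culture. Dppa5a, an RNA-binding protein of undifferentiated ES cells with 619 nt of exons, was at 561 FPKM in ES1 and 577 in ES2 (569 ± 11.4, SD, n = 2), above all 4 markers described here. The ribosomal protein genes Rpl23a (1426 and 1492 FPKM), Rpl32 (1389 and 1482 FPKM) and Rps15 (1393 and 1366 FPKM) and the mitochondrial mt-Nd1 (1382 and 1239 FPKM) stood beside the 30 highest members. Replication-dependent histone genes, whose mRNAs lack a poly(A) tail and which a total RNA library can hold, were also high, with Hist2h2bb at 1111 and 1055 FPKM and Hist1h4h at 504 and 508 FPKM. FPKM of such short genes depends on how fragment length was treated, which is not given in the sources used here. The same limit can apply to members, since their exons are summed over all annotated transcripts of a gene.

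The 2 ES libraries differed in small RNA. Small nuclear RNA genes held 7.25% of all FPKM in ES1 and 0.290% in ES2, and small nucleolar RNA genes 2.77% and 0.736%. Coding genes of any length held 78.0% and 89.1%.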
